A study of Mus musculus with 12 samples.

Results

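The pluripotency genes analysed here are 10 mouse genes that maintain or mark the undifferentiated state of embryonic stem cells. The list is Pou5f1, Sox2, Nanog, Klf4, Esrrb, Lin28a, Zfp42, Tfcp2l1, Prdm14 and Dppa3. These genes were chosen by name. Each was taken as the 1 kb bins that overlap its mm10 gene body with 5 kb on each side, which gave 393 bins of 2462755 autosomal bins, and 10 windows of 47038 autosomal gene windows. The libraries are chromatin immunoprecipitations (ChIP) of mouse embryonic stem cells with antibodies to GZF1, a DNA-binding protein with a BTB domain and zinc fingers, to a FLAG tag on ectopic GZF1, or to the histone mark H3K27ac.

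The 8 libraries analysed come from 2 lines of embryonic stem cells. RGM is a 129xCAST hybrid, and the Cas9 line is labelled Cas9-GFP. With anti-FLAG there was 1 library of RGM cells that overexpress Gzf1-Flag (clone 56) and 1 of Cas9 cells that overexpress Gzf1-Flag (clone 35). With anti-GZF1 there was 1 library of wild-type RGM cells, 1 of wild-type Cas9 cells, 1 of Cas9 cells with a Gzf1 knockout and 1 of Cas9 cells labelled control, a label that says no more. H3K27ac came from wild-type Cas9 cells and an input without antibody from Cas9 cells, and the RGM libraries had no input of their own. All cells had been fixed with formaldehyde and the chromatin cut with micrococcal nuclease. Each group is 1 library, and each overexpression group is 1 clone, so no test between groups was possible and no p-value is given. The intervals are 95% exact intervals on rounded reads (Poisson for 1 library, Clopper-Pearson for a ratio of libraries) and cover counting error at most. Sequenced reads are not independent molecules, so the intervals can be too narrow even for that. Intervals divided by a value of the surrounding 1 Mb also take this value as free of error. In such bulk chromatin, fewer cells with a signal and less signal per cell cannot be told apart.

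The transcription factors OCT4 (from Pou5f1), SOX2 and NANOG bind many enhancers together, including those of their own genes, and keep the stem cell programme running. KLF4, ESRRB, TFCP2L1, PRDM14 and ZFP42 belong to the naive part of this programme, which LIF signalling supports, and LIN28A and DPPA3 act on RNA and on DNA methylation. Promoters of active genes in such cells carry H3K27ac, and CpG-rich promoters are often free of nucleosomes. The series concerns GZF1 at an imprinted domain, so these genes are read here as a place where its signal in stem cells can be set against an input, a knockout and the surrounding sequence.

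Library size ran from 10.1 M reads in the input and 21.8 M in RGM wild type to 94.2 M in the control, or 3.93, 8.61 and 35.8 reads per autosomal bin. Read density below is the mean number of reads per bin divided by the autosomal mean of the same library, so that 1 is the genome average. The median density of chromosome X was 0.348 to 0.378 in the RGM libraries, 0.820 in the knockout, 0.964 in the control and 0.509 to 0.640 in the other Cas9 libraries, so the libraries do not share 1 chromosome dosage. Over Gzf1 itself (chr2:148679384-148692949) the anti-GZF1 density was 0.691 in the knockout and 0.959 in the control. That ratio of 0.720 (0.646 to 0.804) became 0.961 (0.861 to 1.07) after division by the median ratio of the surrounding 1 Mb. Bins of 1 kb cannot show a small edit, so the knockout label could not be checked from these values.

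The start regions of 3 of these genes are shown because CpG content at the start went with read density in every library, as described below. They are the 250 bases before the annotated start in RefSeq for GRCm38.p6, the patch release of mm10, written 5′ to 3′ on the strand of the gene, with each CpG dinucleotide in capitals. Klf4 (chr4:55532476-55532725, minus strand) has 32 CpGs in this stretch, Sox2 (chr3:34649745-34649994, plus strand) has 27 and Nanog (chr6:122707239-122707488, plus strand) has 3.
Klf4: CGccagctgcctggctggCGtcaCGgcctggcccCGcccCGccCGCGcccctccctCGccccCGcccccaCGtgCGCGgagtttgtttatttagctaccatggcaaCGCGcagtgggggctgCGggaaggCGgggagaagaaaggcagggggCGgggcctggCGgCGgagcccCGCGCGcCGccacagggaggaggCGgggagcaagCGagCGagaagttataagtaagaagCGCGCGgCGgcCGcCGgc
Sox2: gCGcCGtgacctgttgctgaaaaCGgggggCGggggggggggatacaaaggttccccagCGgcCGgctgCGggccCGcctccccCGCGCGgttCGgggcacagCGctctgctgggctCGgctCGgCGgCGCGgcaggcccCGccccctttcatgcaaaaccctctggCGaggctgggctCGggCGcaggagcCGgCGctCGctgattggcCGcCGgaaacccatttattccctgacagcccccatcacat
Nanog: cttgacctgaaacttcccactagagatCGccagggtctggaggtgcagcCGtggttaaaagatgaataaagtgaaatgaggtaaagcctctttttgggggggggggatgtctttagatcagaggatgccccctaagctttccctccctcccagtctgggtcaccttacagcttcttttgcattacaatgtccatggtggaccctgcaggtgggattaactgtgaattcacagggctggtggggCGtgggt
RefSeq promoters with a strand were matched for 8 of the 10 genes. Where a gene had several annotated starts, the most upstream was taken, which need not be the one used in stem cells. For Prdm14 and Dppa3 both annotated gene ends were used instead.

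The 10 windows held more reads than the genome average in every library, input included, and most ChIP densities were close to those of the input. The median density of the 10 genes was 1.93 and 1.85 with anti-FLAG in RGM and Cas9, and 2.26 and 2.05 with anti-GZF1 in RGM and Cas9 wild type. It was 1.57 in the knockout and 1.56 in the control, 1.94 with H3K27ac and 1.76 in the input. All autosomal gene windows had medians of 1.09 in the knockout, 1.09 in the control and 1.20 to 1.249 in the other libraries, and coding genes 1.14 to 1.48 over the 8 libraries. In each ChIP library all 10 windows were denser than the median of their own surrounding 1 Mb, and in the input 9 of 10 were, with Esrrb at 0.999 times its surroundings. Of all gene windows with a median above 0 there, 66.9% were denser with anti-FLAG in RGM and 65.2% in Cas9, 71.7% and 67.2% with wild-type anti-GZF1 in RGM and Cas9, 64.5% in the knockout, 65.2% in the control, 66.8% with H3K27ac and 73.1% in the input.

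The core factor genes are given first. Pou5f1 (chr17:35506032-35510777), which encodes the POU factor OCT4, had a density of 2.54 with anti-FLAG in RGM and 2.30 in Cas9, 2.95 with wild-type anti-GZF1 in RGM and 2.63 in Cas9, 1.52 in the knockout and 1.36 in the control, 2.28 with H3K27ac and 2.34 in the input. The knockout and control were the lowest libraries there, and the input was as high as H3K27ac. The Pou5f1 window also holds part of Tcf19 and Gm32362. Sox2 (chr3:34649995-34652461), a partner of OCT4 on DNA whose gene lies inside the non-coding gene Sox2ot, had 2.06 and 1.96 with anti-FLAG in RGM and Cas9, 2.35 and 2.13 with wild-type anti-GZF1 in RGM and Cas9, 1.76 in the knockout, 1.60 in the control, 1.97 with H3K27ac and 2.06 in the input. Only the wild-type anti-GZF1 libraries read above the input at Sox2, apart from a tie with RGM anti-FLAG. Nanog (chr6:122707489-122714633), a homeobox factor gene, had 2.79 with anti-FLAG in RGM and 1.90 in Cas9, 3.17 and 2.47 with wild-type anti-GZF1 in RGM and Cas9, 1.57 in the knockout and 1.89 in the control, 1.88 with H3K27ac and 1.98 in the input. Its RGM wild-type value, with an interval of 2.9 to 3.47, was the highest window density of the 10 genes in any library, and both RGM libraries stood above their Cas9 counterparts.

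Among the genes of the naive state, Klf4 (chr4:55527137-55532475), a Krüppel-like zinc-finger gene, had 1.85 with anti-FLAG in RGM and 1.85 in Cas9, 2.32 and 2.05 with wild-type anti-GZF1 in RGM and Cas9, 1.26 in the knockout and 1.60 in the control, 2.11 with H3K27ac and 1.58 in the input. Here H3K27ac and wild-type anti-GZF1 were both above the input. Esrrb (chr12:86361117-86521628), an orphan nuclear receptor gene and with 171 bins the longest window, had 1.73 and 1.34 with anti-FLAG in RGM and Cas9, 1.83 and 1.448 with wild-type anti-GZF1 in RGM and Cas9, 1.34 in the knockout, 1.452 in the control, 1.31 with H3K27ac and 1.18 in the input. It was the lowest gene of the list in the input, and every ChIP library was above that input. Tfcp2l1 (chr1:118627923-118685168), a gene of the CP2 factor family, had 1.80 and 1.82 with anti-FLAG in RGM and Cas9, 1.90 and 1.83 with wild-type anti-GZF1 in RGM and Cas9, 1.57 in the knockout, 1.52 in the control, 1.90 with H3K27ac and 1.71 in the input. These are among the most even values of the list.

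Prdm14 (chr1:13113428-13127163), a PR-domain gene also needed for primordial germ cells, had 1.54 and 1.87 with anti-FLAG in RGM and Cas9, 1.58 and 2.04 with wild-type anti-GZF1 in RGM and Cas9, 1.66 in the knockout, 1.68 in the control, 2.14 with H3K27ac and 1.80 in the input. Both RGM libraries were below the input and below Cas9. Zfp42 (chr8:43295067-43307009), which encodes REX1, a marker of the undifferentiated state, had 1.39 and 1.81 with anti-FLAG in RGM and Cas9, 1.58 and 1.74 with wild-type anti-GZF1 in RGM and Cas9, 1.77 in the knockout, 1.43 in the control, 1.75 with H3K27ac and 1.59 in the input. RGM was again the lower line, although with wild-type anti-GZF1 the interval of the ratio of RGM to Cas9, 0.800 to 1.04, included 1. Lin28a (chr4:134003330-134019196), whose protein binds RNA and blocks maturation of let-7 microRNAs, had 2.01 and 1.60 with anti-FLAG in RGM and Cas9, 2.20 and 1.80 with wild-type anti-GZF1 in RGM and Cas9, 1.27 in the knockout, 1.13 in the control, 1.68 with H3K27ac and 1.54 in the input. Dppa3 (chr6:122626424-122630271), which encodes STELLA, a protector of maternal methylation in the early embryo, had 2.57 and 1.86 with anti-FLAG in RGM and Cas9, 2.68 and 2.20 with wild-type anti-GZF1 in RGM and Cas9, 1.70 in the knockout, 1.97 in the control, 2.14 with H3K27ac and 1.87 in the input. Dppa3 lies near Nanog on chromosome 6, and both genes had higher values in RGM.

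**Figure D1:**
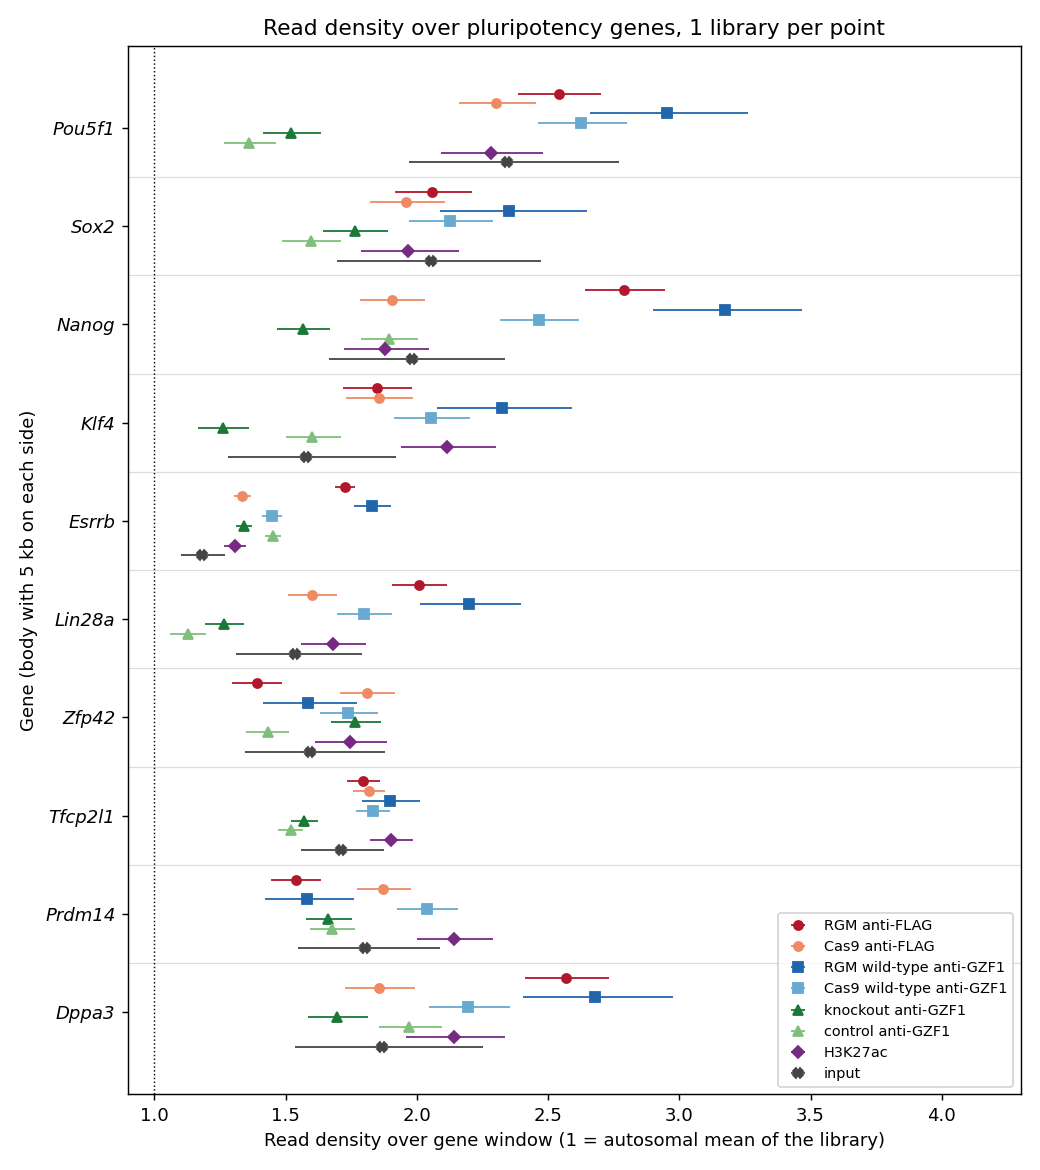
Read density (1 = autosomal mean of the library) over the window of each of the 10 genes, 1 point per library, with 95% exact Poisson intervals as bars. All points lie to the right of the dotted line at 1, from 1.13 (Lin28a, control) to 3.17 (Nanog, RGM wild-type anti-GZF1). The input points lie among those of the ChIP libraries except at Esrrb, where the input is the lowest point.

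No window passed a fold of 1.5 over the Cas9 input in any of the 7 ChIP libraries, on the log2((ChIP + 0.5)/(input + 0.5)) scale. Of all gene windows, 2.15% passed it with anti-FLAG in RGM and 0.334% in Cas9, 4% with wild-type anti-GZF1 in RGM and 0.317% in Cas9, 6.84% in the knockout, 6.84% in the control and 0.315% with H3K27ac. With shares this small, 0 of 10 does not set these genes apart from others. The median log2 value of the 10 genes was 0.14 and 0.04 with anti-FLAG in RGM and Cas9, against 0.02 and 0.00 over all gene windows. With wild-type anti-GZF1 it was 0.34 in RGM and 0.16 in Cas9, against 0.04 and 0.03 over all gene windows. In the knockout and the control it was −0.14 and −0.10, against −0.08 and −0.09, and with H3K27ac 0.10 against 0.01.

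The highest values over input came from RGM. As plain ratios of density, without a pseudocount, Nanog was 1.60 (1.33 to 1.95) and Esrrb 1.55 (1.43 to 1.68) times the input with RGM wild-type anti-GZF1, and 1.41 and 1.46 times with RGM anti-FLAG. The same genes were 1.24 and 1.22 times the input with Cas9 wild-type anti-GZF1, and 0.961 and 1.13 times with Cas9 anti-FLAG. Klf4 was 1.47 times the input with RGM wild-type anti-GZF1 and 1.30 times with Cas9 wild-type anti-GZF1, and had the highest H3K27ac ratio of the list, 1.34. At the other end, Pou5f1 was at 0.649 times the input in the knockout and 0.581 times in the control. The interval of the ratio lay wholly above 1 in 4 genes with anti-FLAG in RGM and 1 in Cas9, in 6 with anti-GZF1 in RGM wild type and 3 in Cas9 wild type, and in 4 with H3K27ac. Of all gene windows it lay above 1 in 24.1% and 8.04% with anti-FLAG in RGM and Cas9, 25.8% and 14.2% with wild-type anti-GZF1 in RGM and Cas9, and 10.7% with H3K27ac. In the knockout and in the control it lay above 1 in 1 gene each, Esrrb, against 19% and 17.9% of all windows, and below 1 in 4 each, against 35.6% and 36.7%. Longer windows hold more reads and have narrower intervals, so these shares depend on window length.

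**Figure D2:**
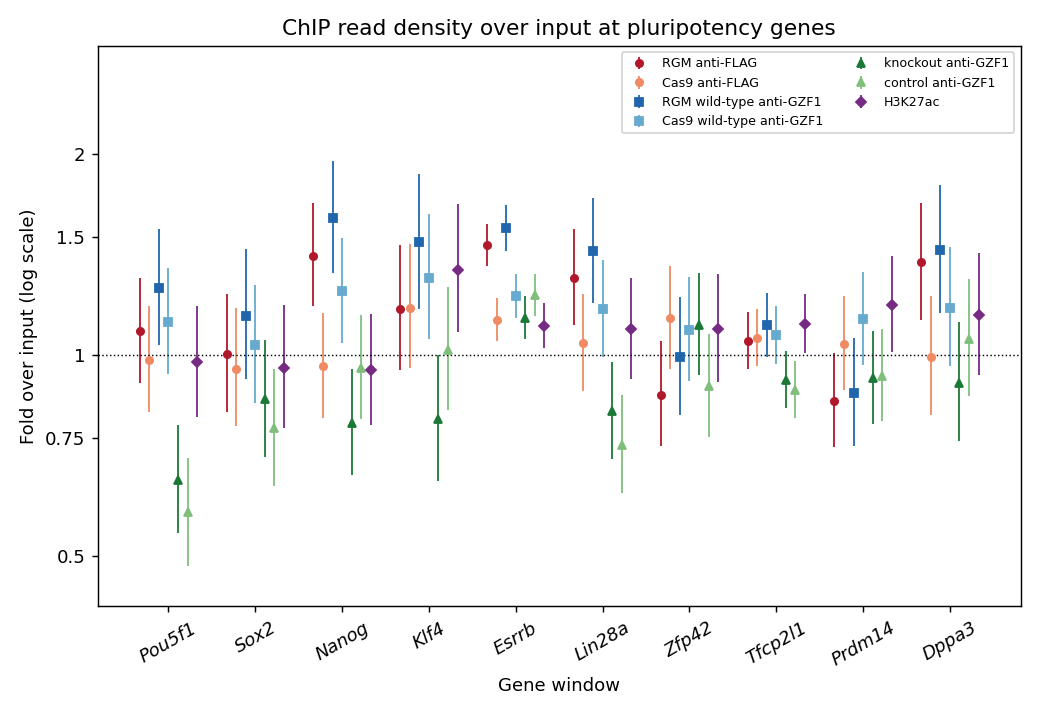
Read density of each ChIP library divided by that of the Cas9 input over each gene window (log scale), with 95% exact Clopper-Pearson intervals as bars. Most points lie near the dotted line at 1, RGM wild-type anti-GZF1 reaches 1.60 at Nanog, and the knockout and control are at 0.649 and 0.581 at Pou5f1.

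Set against the surrounding 1 Mb as well as the input, the order of the genes changed. The input had 3.93 reads per autosomal bin. Its median density over the surrounding 1 Mb was the same value, 1.27, at Sox2, Nanog, Klf4, Lin28a, Prdm14 and Dppa3. Values on this scale are therefore coarse, and no interval was computed for them. Nanog with RGM wild-type anti-GZF1 was 1.17 times the input on this scale and Dppa3 1.05 times. With that antibody the RGM to Cas9 ratio of the median densities of the surrounding 1 Mb was 1.17 at Nanog and 1.17 at Dppa3. Klf4 became the highest in every ChIP library but the knockout, where Esrrb was at 1.10, and the control set Klf4 and Esrrb about level. Klf4 was at 1.36 and 1.14 with anti-FLAG in RGM and Cas9, 1.80 and 1.24 with wild-type anti-GZF1 in RGM and Cas9, 1.07 in the knockout, 1.05 in the control and 1.28 with H3K27ac. RGM wild-type anti-GZF1 had 1.31 at Sox2, 1.27 at Esrrb and 1.23 at Pou5f1 after Klf4.

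Within the windows, single bins above their local background were few. A bin was counted at a fold of 2 over the median of the 10 bins on each side, with the same pseudocount. Of 393 bins, 3 passed with anti-FLAG in RGM and 1 in Cas9, against 0.529% and 0.231% of all autosomal bins. With wild-type anti-GZF1 there were 13 bins in 5 genes in RGM and 1 bin in Cas9, against 2.32% and 0.483% of all bins. The knockout and the control had 0 each, against 0.045% and 0.0398%, H3K27ac had 1, against 0.546%, and the input had 14, against 7.48%. As shares of the 393 bins the counts come to 0.763% and 0.254% with anti-FLAG in RGM and Cas9, 3.31% and 0.254% with wild-type anti-GZF1 in RGM and Cas9, 0.254% with H3K27ac and 3.56% in the input. The background share was lowest in the control, with 35.8 reads per bin, and highest in the input, with 3.93, and the part of depth in these counts was not tested. No bin passed with anti-FLAG in both lines, against 0.144% of all bins, and 1 bin, the start of Klf4, passed with wild-type anti-GZF1 in both, against 0.38%.

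The Klf4 start had the highest local value of the list. Its bin (chr4:55532001-55533000) held 114.2 anti-FLAG reads in RGM and 74.6 in Cas9, 68.65 wild-type anti-GZF1 reads in RGM and 115.3 in Cas9, 42.2 reads in the knockout and 82.9 in the control, 66.55 with H3K27ac and 13 in the input. Relative to local background, without a pseudocount, that was 3.04 and 1.72 times with anti-FLAG in RGM and Cas9, 5.62 and 2.81 times with wild-type anti-GZF1 in RGM and Cas9, 1.07 times in the knockout, 1.65 times in the control, 2.43 times with H3K27ac and 2.63 times in the input. The input was thus about as far above its local background in this bin as Cas9 wild-type anti-GZF1 and H3K27ac were. The ratio to the input was 2.41 (1.33 to 4.77) with RGM wild-type anti-GZF1 and 1.48 (0.828 to 2.85) with Cas9 wild-type anti-GZF1. It was 1.30 (0.731 to 2.52) with RGM anti-FLAG and 0.828 (0.459 to 1.64) with Cas9 anti-FLAG, so 1 of these 4 intervals excludes 1. In RGM wild-type anti-GZF1 the next bins inside the gene were also high, with 4.50 times local background in chr4:55531001-55532000 and 3.41 times in chr4:55530001-55531000, where the input itself was 3.23 times its local background.

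Upstream of Pou5f1 the same RGM library had a high bin that the input shared. The bin chr17:35505001-35506000 held 108 anti-FLAG reads in RGM and 84.75 in Cas9, and 56.45 wild-type anti-GZF1 reads in RGM and 73.95 in Cas9. It held 65 reads in the knockout and 69.55 in the control, 38 with H3K27ac and 18.7 in the input. This was also the highest anti-FLAG bin of the gene. That name is used here for the bin whose lower value of the 2 lines, over local background, was highest, so a single line can be higher in another bin. RGM wild-type anti-GZF1 was 3.14 times and the input 2.20 times its local background, and their ratio was 1.38 (0.786 to 2.39). The Pou5f1 start bin next to it was at 1.18 and 1.54 times the local background with anti-FLAG in RGM and Cas9, 1.31 and 1.37 times with wild-type anti-GZF1 in RGM and Cas9, and 1.13 times in the input. At Nanog the highest anti-FLAG bin, chr6:122705001-122706000, was 1.56 times local background in RGM and 1.84 times in Cas9, and 2.25 times in the input. At Dppa3 it was chr6:122627001-122628000, at 1.54 times in RGM, 1.89 times in Cas9 and 2.20 times in the input. In these 3 genes the highest anti-FLAG bin by this rule was thus also one where the input was high.

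Bins with a low input behaved otherwise. At Lin28a the highest anti-FLAG bin, chr4:134019001-134020000, was 2.34 times local background in RGM and 1.78 times in Cas9, 3.16 times with wild-type anti-GZF1 in RGM and 1.34 times in Cas9, 2.01 times in the knockout and 1.32 times in the control, 1.96 times with H3K27ac and 0.893 times in the input. This bin holds the upstream end of the Lin28a gene body and rested on 5 input reads. At Zfp42 it was chr8:43305001-43306000, centred 1509 bp inside the gene, where Cas9 anti-FLAG had its only bin at a fold of 2 in the list: 63.75 anti-FLAG reads in RGM and 131.95 in Cas9, or 1.92 and 3.13 times local background. The wild-type anti-GZF1 values there were 1.57 times in RGM and 1.70 times in Cas9, the knockout and control had 1.43 and 1.39 times, H3K27ac 1.61 times and the input 0.986 times. The ratio of anti-FLAG to input was 1.75 (0.773 to 6.05) in RGM and 3.53 (1.59 to 11.9) in Cas9. At Esrrb it was chr12:86470001-86471000, 109383 bp inside the gene, with 1.56 and 1.82 times local background in RGM and Cas9 and 3 input reads. All 7 ChIP libraries were at 1.14 to 2.04 times local background in that bin, the knockout included.

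The remaining highest anti-FLAG bins were close to starts or ends. At Sox2 chr3:34650001-34651000 had 1.49 times local background in RGM and 1.42 times in Cas9, at Klf4 chr4:55533001-55534000 had 2.11 and 1.74 times, and at Tfcp2l1 chr1:118628001-118629000 had 2.16 and 1.58 times. At Prdm14 chr1:13125001-13126000 had 1.497 times in RGM and 1.49 times in Cas9, with the input at 1.67 times. These bins were picked as the highest of their windows by the lower value of the 2 lines, so their values are selected maxima.

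**Figure D3:**
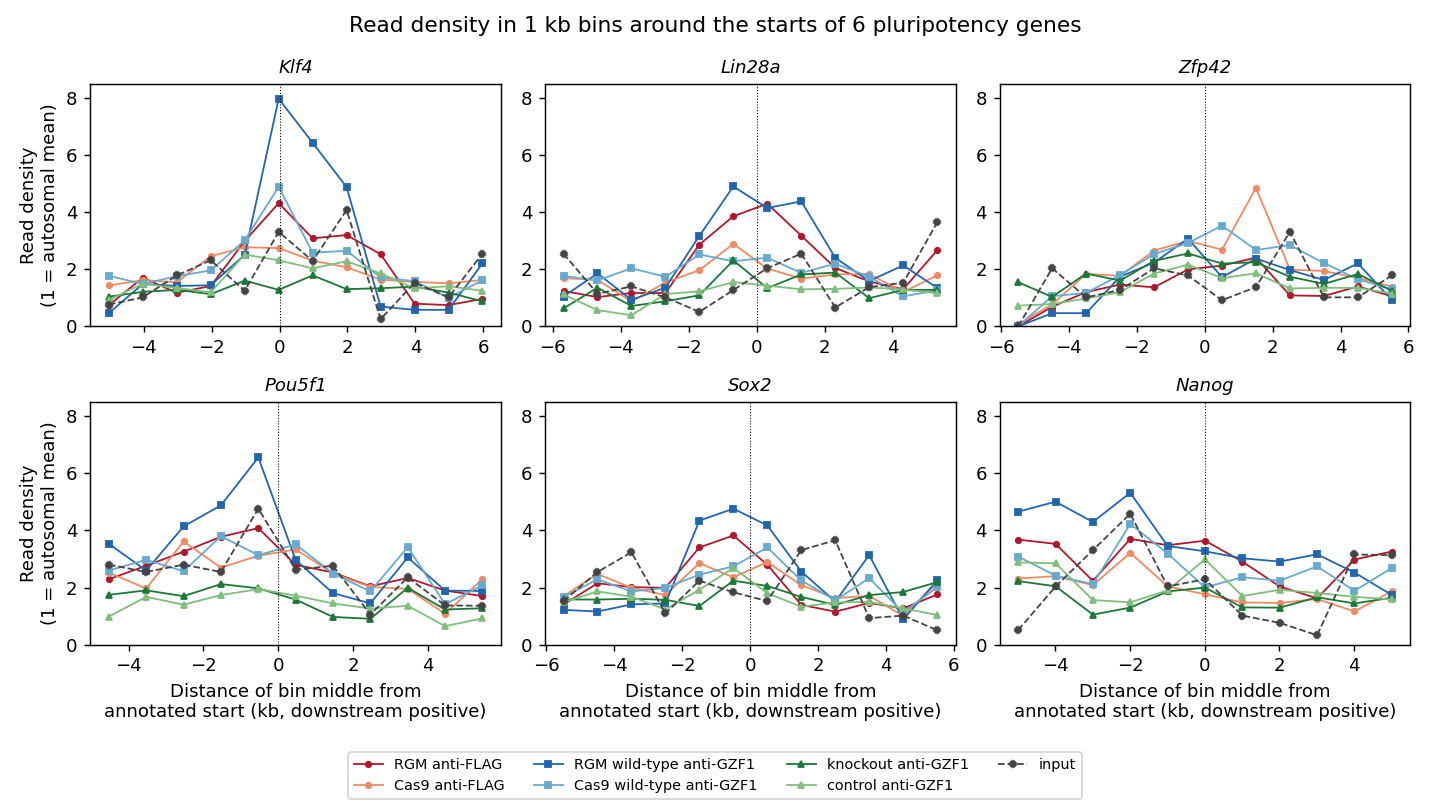
Read density (1 = autosomal mean) in 1 kb bins by distance of the bin middle from the annotated start (kb, downstream positive) for 6 genes, with 1 line per library and the input dashed. RGM wild-type anti-GZF1 reaches 7.97 at the Klf4 start, Cas9 anti-FLAG 4.85 inside Zfp42, and at Pou5f1 and Nanog the input peaks in the same bin as RGM wild-type anti-GZF1.

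At the starts, where promoters lie, these genes were close to other genes. A start bin was counted at a fold of 1.5 over local background, with the pseudocount. Of the 8 genes with a strand, 5 passed with anti-FLAG in RGM and 2 in Cas9, against 40.5% and 32% of all starts, and 6 passed with wild-type anti-GZF1 in RGM and 2 in Cas9, against 51.3% and 41.8%. In the knockout 1 passed and in the control 3, against 16.3% and 16.7%, with H3K27ac 3, against 38.5%, and in the input 3, against 38.1%. The Zfp42 start passed in all 8 libraries, at 1.75 and 2.09 times the local background with anti-FLAG in RGM and Cas9, 2.40 and 2.09 times with wild-type anti-GZF1 in RGM and Cas9, 1.68 times in the knockout, 1.71 times in the control, 1.69 times with H3K27ac and 1.75 times in the input. Its values were even across antibodies and the input. The Klf4 start passed in 6 libraries, all but the knockout and the control. The bin at the upstream end of the Lin28a gene body, not counted here, was at 2.01 times local background in the knockout, past this fold.

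At several starts RGM was denser than Cas9. The Lin28a start bin held 113.7 anti-FLAG reads in RGM and 55.1 in Cas9, or 2.60 and 1.251 times local background, and 2.58 and 1.41 times with wild-type anti-GZF1 in RGM and Cas9, against 1.47 times in the input. The Sox2 start bin was at 2.04 times the local background with anti-FLAG in RGM and 1.11 times in Cas9, and at 2.22 and 1.28 times with wild-type anti-GZF1 in RGM and Cas9, against 1.03 times in the input. In both genes RGM was the higher line with each antibody. The anti-FLAG densities and their intervals were 4.3 (3.55 to 5.17) in RGM and 2.03 (1.52 to 2.63) in Cas9 at Lin28a, and 3.82 (3.11 to 4.64) in RGM and 2.36 (1.81 to 3) in Cas9 at Sox2, and in neither gene do they overlap. With wild-type anti-GZF1 they do: 4.15 (2.93 to 5.79) in RGM and 2.41 (1.83 to 3.13) in Cas9 at Lin28a, and 4.76 (3.42 to 6.46) in RGM and 2.74 (2.13 to 3.51) in Cas9 at Sox2. Of the 8 starts, RGM was above Cas9 with no overlap of the intervals in 5 with anti-FLAG (Sox2, Nanog, Klf4, Esrrb and Lin28a), against 12.5% of all starts, and in 1 with wild-type anti-GZF1, Klf4, against 14.9%. These densities were not divided by those of the surrounding 1 Mb. In the bin at the upstream end of the Lin28a gene body the anti-FLAG intervals did overlap, at 3.14 to 4.68 in RGM and 2.30 to 3.62 in Cas9. At Nanog the start bin was flat in most libraries: 1.51 and 0.962 times with anti-FLAG in RGM and Cas9, 1.13 and 0.838 times with wild-type anti-GZF1 in RGM and Cas9, 1.27 times in the knockout, 1.77 times in the control and 1.12 times in the input. The Tfcp2l1 start bin was at 1.72 and 1.34 times with anti-FLAG in RGM and Cas9, 2.32 and 1.38 times with wild-type anti-GZF1 in RGM and Cas9, and 1.58 times in the input. The Esrrb start bin was at 1.60 and 0.713 times with anti-FLAG in RGM and Cas9 and at 2.75 and 1.74 times with wild-type anti-GZF1 in RGM and Cas9, while the input, with 11.1 reads, was at 3.06 times.

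For Prdm14 and Dppa3 neither gene end stood out. The Prdm14 ends were at 1.00 and 1.52 times local background with RGM anti-FLAG (lower and higher coordinate), 0.621 and 1.00 times with Cas9 anti-FLAG, and 1.27 and 0.778 times in the input. The Dppa3 ends were at 1.09 and 0.721 times with RGM anti-FLAG, 1.13 and 0.714 times with Cas9 anti-FLAG, and 0.948 and 1.33 times in the input.

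Start values went with CpG content in every library. The 300 bases around the start (250 before, 50 after) hold 40 CpGs in Klf4, 27 in Sox2, 21 in Tfcp2l1, 11 in Pou5f1 and in Zfp42, 10 in Lin28a, 7 in Esrrb and 4 in Nanog, against a median of 7 and quartiles of 3 and 21 over 25748 promoters. In starts with 21 or more CpGs the median start value (log2 over local background) came to 1.06 and 0.77 with anti-FLAG in RGM and Cas9, 1.64 and 1.09 with wild-type anti-GZF1 in RGM and Cas9, 0.44 in the knockout, 0.47 in the control, 1.00 with H3K27ac and 0.78 in the input. In starts with 3 to 6 CpGs it was 0.06 to 0.17 in the 7 ChIP libraries and 0.05 in the input. CpG-rich starts were thus read-rich without any antibody. Against the quartiles of starts in the same CpG class, Klf4 was the only one of the 8 genes above the upper quartile with RGM wild-type anti-GZF1, at a log2 value of 2.14. Sox2, at 0.99 in that library, was below the lower quartile of 1.27. Over the 8 genes, 3 were above, 3 within and 2 below with RGM anti-FLAG, and 1, 4 and 3 with Cas9 anti-FLAG. With wild-type anti-GZF1 1 was above, 4 within and 3 below in RGM, and 0, 5 and 3 in Cas9, against 1, 6 and 1 in the input.

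The letters GGGCGG, a binding sequence of SP and KLF factors, occur on either strand of 5 of the 8 promoters (Pou5f1, Sox2, Klf4, Lin28a and Zfp42) and of 36.3% of all promoters of the same length. The letters CCAAT occur in 3 of 8 (Pou5f1, Sox2 and Zfp42) and in 37.9% of all. TATAAA occurs in 1 of 8, Tfcp2l1, and in 14.2% of all. These are matches of letters, not sites shown to be bound.

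**Figure D4:**
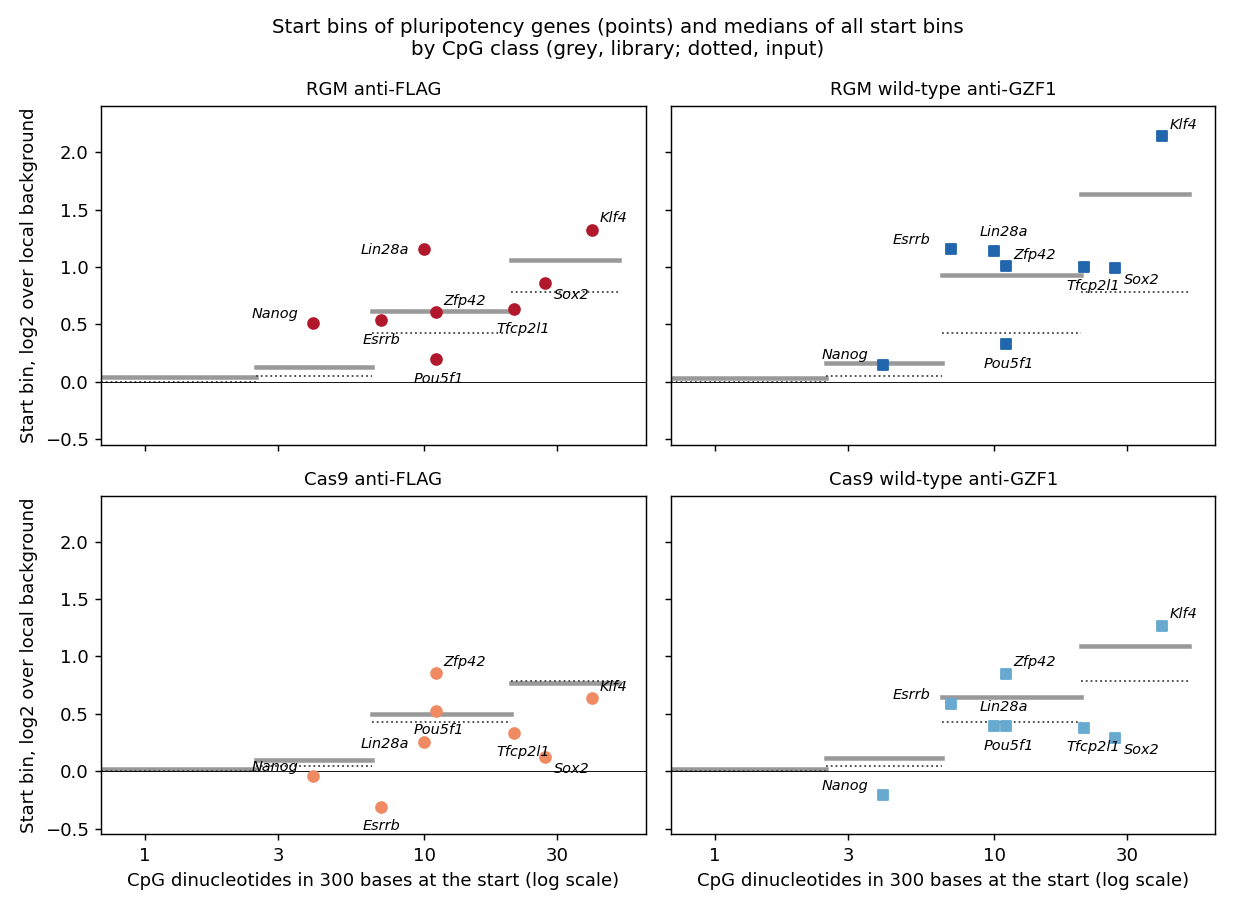
Start bin value (log2 over local background, pseudocount 0.5) of the 8 genes with a strand against the CpG count of the 300 bases around the start (log scale), in 4 libraries, with RGM above Cas9. Grey lines are medians of all start bins by CpG class in that library and dotted lines those of the input. The grey lines climb with CpG count to 1.06 with anti-FLAG in RGM and 0.77 in Cas9, and to 1.64 with wild-type anti-GZF1 in RGM and 1.09 in Cas9, and the Klf4 point is the highest in 3 of the 4 panels.

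Over all 10 windows the anti-GZF1 reads of the knockout were less than 25% above and less than 20% below those of the control once the surroundings were taken into account. Divided by the autosomal mean alone, the ratio of knockout to control was 0.788 (0.712 to 0.871) at Klf4, 0.827 (0.758 to 0.901) at Nanog, 0.861 (0.785 to 0.943) at Dppa3 and 1.23 (1.14 to 1.34) at Zfp42. The median ratio of the 1 Mb around these genes was 0.780, 0.874, 0.877 and 1.21, so the surroundings differed by about as much as the windows. After division by it the ratios were 1.01 (0.912 to 1.12) at Klf4, 0.946 (0.867 to 1.03) at Nanog, 0.981 (0.895 to 1.07) at Dppa3 and 1.02 (0.941 to 1.10) at Zfp42. The other genes, by the same division, had 1.09 (0.987 to 1.21) at Pou5f1, 1.02 (0.992 to 1.05) at Esrrb, 1.07 (0.983 to 1.16) at Lin28a and 0.959 (0.892 to 1.03) at Prdm14.

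The interval excluded 1 at Sox2 and Tfcp2l1, both higher in the knockout, and it lay above 1 in 9.44% and below 1 in 7.99% of all windows. Sox2 held 813.35 reads in the knockout and 798.75 in the control, a corrected ratio of 1.14 (1.03 to 1.26). Tfcp2l1 held 3570.9 reads in the knockout and 3748.35 in the control, a corrected ratio of 1.06 (1.02 to 1.11), which was 0.957 when the chromosome median took the place of the surrounding 1 Mb. No gene was lower by 20% or higher by 25%, against 0.52% and 0.647% of 46710 gene windows, and the median corrected ratio was 1.02, against 1.00 over all windows.

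In the start bins, a comparison added after the data were seen, the knockout was below the control at Klf4 and Nanog. Klf4 had 42.2 reads in the knockout and 82.9 in the control, a corrected ratio of 0.710 (0.475 to 1.03). Nanog had 65.85 reads in the knockout and 106.85 in the control, a corrected ratio of 0.765 (0.555 to 1.05). Both intervals include 1, and the other 6 starts had ratios of 0.861 to 1.19. Of the 8 starts 2 were lower by 20% and 0 higher by 25%, against 20.9% and 17.9% of 25179 starts with at least 20 control reads, so a count of 2 is close to the background. The bin at the upstream end of the Lin28a gene body, not among these starts, held 76.1 reads in the knockout and 55.55 in the control.

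**Figure D5:**
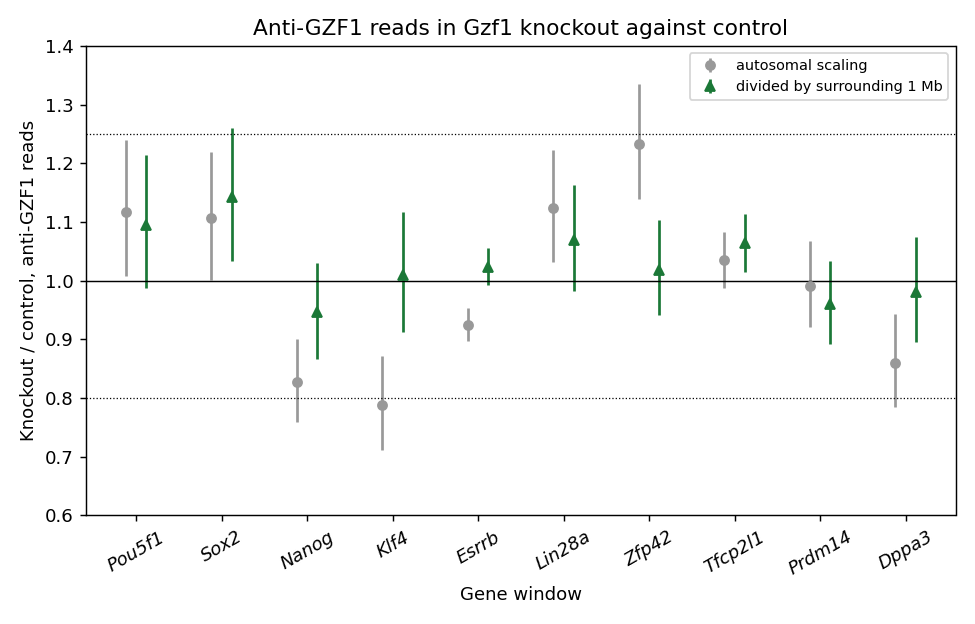
Ratio of anti-GZF1 reads in the Gzf1 knockout to the control over each gene window, scaled by autosomal means (grey) or further divided by the median ratio of the surrounding 1 Mb (green), with 95% exact Clopper-Pearson intervals as bars. Dotted lines mark 25% above and 20% below 1. The grey Klf4 point, at 0.788, lies beyond one, and all green points lie between 0.946 and 1.14.

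With anti-FLAG, RGM and Cas9 differed most at genes whose surrounding 1 Mb differed as well. The ratio of RGM to Cas9 density was 1.46 at Nanog, 1.39 at Dppa3, 1.29 at Esrrb, 1.254 at Lin28a and 0.768 at Zfp42, and divided by the ratio of the surrounding 1 Mb it became 1.08 (0.995 to 1.18), 1.02 (0.926 to 1.12), 1.04 (1.00 to 1.07), 1.04 (0.960 to 1.12) and 0.996 (0.910 to 1.09). The median density of chromosome 6, which holds Nanog and Dppa3, was 1.28 with anti-FLAG in RGM and 0.993 in Cas9, and that of chromosome 8, which holds Zfp42, was 0.907 in RGM and 1.06 in Cas9. Before the division the interval lay above 1 in 5 genes and below 1 in 2, and after it above 1 in 2 (Klf4 and Esrrb) and below 1 in 1 (Prdm14, 0.874). Of all windows it lay above 1 in 36.1% and below 1 in 27.3% before the division, and in 23% and 15.8% after it.

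With wild-type anti-GZF1 the division worked the other way at several genes. Klf4 had an RGM to Cas9 ratio of 1.13 before it and 1.447 (1.27 to 1.65) after it, the highest of the list. Sox2 had 1.24 (1.08 to 1.43) after it, Zfp42 1.24 (1.09 to 1.42), Pou5f1 1.23 (1.09 to 1.39) and Lin28a 1.16 (1.04 to 1.29), while Prdm14 had 0.890 (0.788 to 1.01). The interval lay above 1 in 7 of 10 genes after the division, against 30.8% of all windows, and in 4 before it, against 27.8%. It lay below 1 in 0 genes after the division, against 6.8%, and in 1 before it, Prdm14, against 21.5%. The median ratio of the 10 genes was 1.13 in each case, against 1.07 after and 1.02 before the division over all windows. Intervals after the division take the divisor as free of error. The divisor rests on medians of few reads, with 8.61 per autosomal bin in RGM wild type, so it moves in coarse steps. The libraries of the lines differ in strain and in depth, and those with anti-FLAG also in clone. The parts of these in the ratios cannot be told apart.

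The H3K27ac medians of the pluripotency genes and of marker genes of other cell types all lay close to the input. The median log2 value over input was 0.10 over their windows, against 0.08 over 10 markers of fibroblast feeders, 0.00 over 8 of primitive endoderm, 0.03 over 7 of trophoblast, −0.06 over 5 of epiblast and primed cells and −0.06 over 10 of differentiated tissues. No window of any list passed a fold of 1.5. At the starts 3 of 8 genes passed with H3K27ac (Klf4, Lin28a and Zfp42), against 1 of 4 feeder, 2 of 4 primitive endoderm, 1 of 5 trophoblast, 1 of 4 epiblast and 1 of 7 differentiated markers. The H3K27ac window density ran from 1.31 (Esrrb) to 2.28 (Pou5f1) in the pluripotency genes and had medians of 1.94 there, 1.18 in feeder markers and 1.37 in markers of differentiated tissues, with input medians of 1.76, 0.966 and 1.30. Trophoblast markers were as high, with a median of 1.95 and an input median of 1.87. The medians were 1.57 in epiblast and primed markers and 1.45 in primitive endoderm markers, with input medians of 1.61 and 1.46. The label of the cells could therefore not be checked from this mark, and chromatin signal does not measure RNA.

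A wider list of the naive pluripotency and LIF network gave similar values. Of 34 genes 31 are autosomal. The log2 value over input had a median of 0.11 and 0.06 with anti-FLAG in RGM and Cas9, 0.29 and 0.15 with wild-type anti-GZF1 in RGM and Cas9, −0.10 in the knockout, −0.19 in the control and 0.13 with H3K27ac. A fold of 1.5 was passed by 4 of 31 with RGM wild-type anti-GZF1, where 4% of all windows passed, and by 0 in each of the other 6 ChIP libraries. The 4 were Dppa5a at a log2 value of 0.68, Lefty2 at 0.61, Lefty1 at 0.60 and Mycn at 0.60. They include both Lefty genes, inhibitors of NODAL signalling that lie near each other, and they were chosen after their values were seen. By the mean of both anti-FLAG libraries, Tcl1, a co-activator of AKT, was highest (0.51 in RGM and 0.41 in Cas9), followed by Klf2 (0.38 in RGM and 0.29 in Cas9), a relative of Klf4. Dppa4 was lowest, at −0.44 in RGM and −0.08 in Cas9. Between knockout and control 0 of the 31 were lower by 20% and 0 higher by 25%.

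The gene windows most like the median of the 10 genes, by Euclidean distance over the log2 densities of all 8 libraries among 45988 windows of at least 11 bins, were Pkm at 0.124, Rab27a at 0.136 and Halr1 at 0.148. The 10 genes themselves were at 0.320 (Tfcp2l1) to 1.14 (Esrrb) from their own median. The named windows were picked as the smallest distances. Pkm, for instance, had a density of 1.90 and 1.78 with anti-FLAG in RGM and Cas9, 2.39 and 2.09 with wild-type anti-GZF1 in RGM and Cas9, 1.57 in the knockout, 1.53 in the control, 1.90 with H3K27ac and 1.81 in the input.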

How the data were processed

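Chromatin of mouse embryonic stem cells was immunoprecipitated and sequenced. Of the 12 libraries of the series 8 are columns of the table used, and 4 were not analysed here. Per the submitters' processing notes, cutadapt, Bowtie2 2.5.4, SAMtools, deepTools and mm10 were used; duplicate and mapping filters are not given in the sources used here. Per bin of 1 kb the authors deposited estimated counts (expected counts), with reads split at bin edges and no scaling to depth.

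Values were scaled to the autosomal mean of the library. Depth was 3.93 to 35.8 reads per bin. Values over input or local background are log2 with a pseudocount of 0.5 unless called a ratio. Knockout and control were also compared after division by the median ratio of the surrounding 1 Mb. Only bins with at least 10 control reads entered that median, and gene windows needed at least 100 control reads. Between the lines the divisor was the ratio of their median densities over the surrounding 1 Mb. Gene coordinates and promoters are RefSeq GRCm38.p6. The steps were tested on simulated data. The software was scipy 1.17.1 with pandas 2.3.3, numpy 2.4.6 and matplotlib 3.10.9 under Python 3.11.15.

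The genes and lists were chosen with earlier results of these data known. The rule for names was to give all 10 genes and, in each, the start bin and the highest anti-FLAG bin. The latter is the bin where the lower anti-FLAG value of the 2 lines, over local background, was highest. The rule also named the 2 highest and the lowest related genes, and the 3 nearest windows. Bins at a fold of 2 were added. CpG classes, line ratios over 1 Mb, counts of intervals and start bins of the knockout were chosen after seeing the data. The alternatives were pseudocounts of 0.25 and 1, the autosomal median, gene bodies alone, an input filter, 20 bins on each side, other folds, the mean of 3 bins at a start, and knockout ratios without the 1 Mb division or with the chromosome median.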

Additional observations from a re-analysis of the deposited data

How the results depend on the processing

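Of 122 counts recomputed under the alternatives, 90 were within 1.5 times the main count and 32 were not. Shares of all gene windows, bins and starts are given above for the main settings only. The counts below therefore cannot be set against a background. Windows past 1.5-fold over input, 0 in the main analysis, became 1 (Nanog) with a pseudocount of 0.25, 2 (Klf4 and Dppa3) with gene bodies alone and 2 (Sox2 and Nanog) without bins of extreme input for RGM wild-type anti-GZF1, and 1 (Nanog) without such bins for RGM anti-FLAG. Bins above local background became 5 for RGM anti-FLAG, 2 for Cas9 wild-type anti-GZF1 and 2 for H3K27ac with a pseudocount of 0.25, and 1 for RGM anti-FLAG, 7 for RGM wild-type anti-GZF1 and 0 for H3K27ac with a pseudocount of 1. With 20 bins on each side they became 2 for Cas9 wild-type anti-GZF1 and 3 for H3K27ac, and without extreme input 0 for each of these. At a fold of 3 they became 2 for RGM wild-type anti-GZF1 and 0 for RGM anti-FLAG, Cas9 anti-FLAG, Cas9 wild-type anti-GZF1 and H3K27ac. Start bins became 2 for the knockout with a pseudocount of 0.25. With a pseudocount of 1 they became 3 for RGM anti-FLAG, 1 for Cas9 anti-FLAG, 0 for the knockout and 0 for the control, and the mean of 3 bins gave the same 4 counts. Without extreme input they became 1 for Cas9 anti-FLAG and 1 for Cas9 wild-type anti-GZF1. Knockout against control, genes lower by 20% became 1 (Klf4, 0.788) with the autosomal ratio alone, genes higher by 25% became 1 (Lin28a, 1.30) with the chromosome median, and Tfcp2l1 turned to 0.957 with the chromosome median. The cause was not tested. No paired analysis was possible because each group is 1 library, and no library could be left out of its group. The input, with 3.93 reads per bin, limits every ratio to it.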

Other observations

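The window of Lin28a reaches the end of the neighbouring gene Dhdds, which encodes a subunit of the enzyme for dolichol synthesis. The bin chr4:134000001-134001000 there held 47.9 anti-FLAG reads in RGM and 49.5 in Cas9, 45.1 wild-type anti-GZF1 reads in RGM and 75.05 in Cas9, 53.65 reads in the knockout and 46.9 in the control, 15 with H3K27ac and 8.55 in the input. That was 3.22 times local background with wild-type anti-GZF1 in RGM and 2.11 times in Cas9, 1.76 times in the knockout and 1.22 times in the control, against 1.71 times in the input. The ratio of wild-type anti-GZF1 to input was 2.41 (1.10 to 5.30) in RGM and 1.46 (0.693 to 3.15) in Cas9. H3K27ac was below its surroundings in this bin, at 0.743 times local background. The bin was picked after its values were seen.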
